A study of Mus musculus with 34 samples.

Results

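The 8 genes described here, Nkx6-1, Nkx6-2, Nkx2-2, Nkx2-9, Olig2, Phox2a, Isl1 and Tbx20, encode transcription factors of the ventral neural tube and of motor neurons. They were chosen by symbol, as the rows of the deposited gene table that carry these names, and make up 8 of its 24103 entries. RNA was sequenced in 34 libraries of mouse cells in 9 groups, and the table gives FPKM, a level corrected for transcript length and for the total of mapped fragments. Cells of the embryonic stem cell line CBMS1 (strain CBA/MsM) were kept in 2i/LIF medium (ESC day 0, n = 3 libraries). They were then brought to an epiblast-like state (EpiLC day 2, with 5 libraries). These cells were put into wells at 2000 cells each and grew as floating aggregates, called embryoid bodies, in plain GK15 medium with no added factor (EB, with 3 libraries on each of days 3, 4, 5 and 6 and 5 libraries on day 7). All these cells derive from 1 line, so the libraries do not sample different animals. Epiblast stem cells (EpiSC, strain C57BL6, female, in Activin/FGF medium on a layer of fibroblasts, n = 3, all from 1 line per the titles) and embryonic fibroblasts (MEF) were the other groups. The fibroblasts came from C57BL6 embryos 12.5 days old and were cultured with serum (n = 6 libraries, from 2 cultures at 3 passages each). The labels name no altered allele and no hedgehog agonist in any group.

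In the embryo, Sonic hedgehog from the notochord and the floor plate divides the ventral neural tube into bands of progenitor cells. The homeodomain factors Nkx6-1 and Nkx6-2 span several ventral bands, Olig2 marks the band that forms somatic motor neurons, and Nkx2-2 and Nkx2-9 mark the most ventral band beside the floor plate, which in the hindbrain forms visceral and branchial motor neurons. Isl1 is made as motor neurons are born, Phox2a is made in visceral and branchial motor neurons and in the neurons of cranial nerves that move the eyes, and Tbx20 is made in hindbrain motor neurons. Several of these genes have other homes too, Isl1 and Tbx20 in the heart and Nkx6-1, Nkx2-2 and Isl1 in the pancreas.

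The promoter windows differed within the set in CpG, and the 2 genes furthest apart over the whole window are shown. RefSeq's promoter table for build GRCm38.p6 held all 8 genes and was searched from 250 bases before to 50 bases after each start. The 8 windows held from 15 CpG dinucleotides in Nkx2-9 to 40 in Nkx6-1, against a median of 7 over 32851 promoters of the same length. In the 250 bases before the start alone the range was 8 in Nkx2-2 to 33 in Isl1, with 30 in Nkx6-1 and 13 in Nkx2-9. These upstream bases of Nkx6-1 and Nkx2-9 are printed with CpG in capitals (Nkx6-1, chr5:101664712-101664961, minus strand; Nkx2-9, chr12:56613285-56613534, minus strand).
Nkx6-1: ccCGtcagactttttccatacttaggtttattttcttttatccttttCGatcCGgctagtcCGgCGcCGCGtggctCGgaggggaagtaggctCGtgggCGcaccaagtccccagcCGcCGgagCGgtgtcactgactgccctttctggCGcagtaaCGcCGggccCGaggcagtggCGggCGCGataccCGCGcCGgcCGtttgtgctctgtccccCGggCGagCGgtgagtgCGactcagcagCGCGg
Nkx2-9: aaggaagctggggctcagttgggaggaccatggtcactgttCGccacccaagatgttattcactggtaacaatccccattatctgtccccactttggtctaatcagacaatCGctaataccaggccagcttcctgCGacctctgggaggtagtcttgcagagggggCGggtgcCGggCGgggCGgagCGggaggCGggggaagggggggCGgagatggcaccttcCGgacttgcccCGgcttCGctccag
The 6 short motifs were searched on both strands of the windows, with no overlap between their letters required or excluded. The GLI motif TGGGTGGTC was in 0 of the 8 windows and in 0.253% of all promoters. The homeodomain motif TAATTA was in 0 of 8 (5.29% of all), and the NK2 motif TTAAGTG was in 0 of 8 (2.41% of all). The E-box CAGCTG was found in the window of Isl1 alone (1 of 8, against 16.3% of all) and TATAAA in that of Olig2 alone (1 of 8, against 13.6%). GGGCGG was in 6 of 8 windows, those of Nkx2-2, Phox2a, Nkx6-2, Tbx20, Nkx2-9 and Olig2, against 35.7% of all promoters. A match is a description of these letters and not a bound site.

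Libraries of a group were alike, with correlations of log2(FPKM + 1) over all entries of 0.977 or more. Between 11303 and 12212 genes per library reached 1 FPKM. One library, EB day 3 replicate 3, had a summed FPKM of 990700, where the other groups spanned 485700 to 734800. Fragment counts were not in the table, so the depth of each library is unknown. The labels' project numbers split the libraries into project A (19) and project B (15), and all EpiSC were in B and all ESC day 0 and MEF in A. Of the 8 pluripotency markers used to check the labels, the sum was 2460 to 2623 FPKM on day 0, 782 to 1293 FPKM in EpiSC and 62.8 to 139 FPKM on day 7. RNA came from whole cultures, so that fewer cells making a gene and less RNA per cell cannot be told apart.

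Tests used limma on log2(FPKM + 1) with all 34 libraries in 1 fit, over the 14595 genes that reached 1 FPKM in 3 or more libraries. Calls needed both an adjusted p below 0.05 and a size of 1 or more on this log2 scale, which understates the change of genes near 0. All 8 genes passed the filter. Nkx2-2, Olig2 and Tbx20 passed it only through libraries of days 6 and 7. Each had 8 libraries at 1 FPKM or more and 0 of these outside days 5 to 7. Nkx6-1 had 12 such libraries and 1 of these outside days 5 to 7, so it too needed those days to pass. The differences of these genes between those days and the rest are thus in part set by the filter.

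Along the course, the 8 genes were low to day 4, and most of the rise fell between days 4 and 7. Over days 0 to 7, 8 of 8 changed in the moderated F test, as did 54.6% of all genes tested. From EpiLC day 2 to EB day 7, 8 of 8 were called higher, against 15.1% of all genes, and 0 were called lower, against 11.0%. Within project A alone the count was 8 and within project B alone it was 8. From day 2 to day 6, 7 were called higher, against 12.9% of all genes, and 0 lower, against 10.6%. From ESC day 0 to EB day 7 the count was 8 higher, against 16.2% of all genes, and 0 lower, against 12.6%. The steps differed between the genes, as the following paragraphs show gene by gene.

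**Figure D1:**
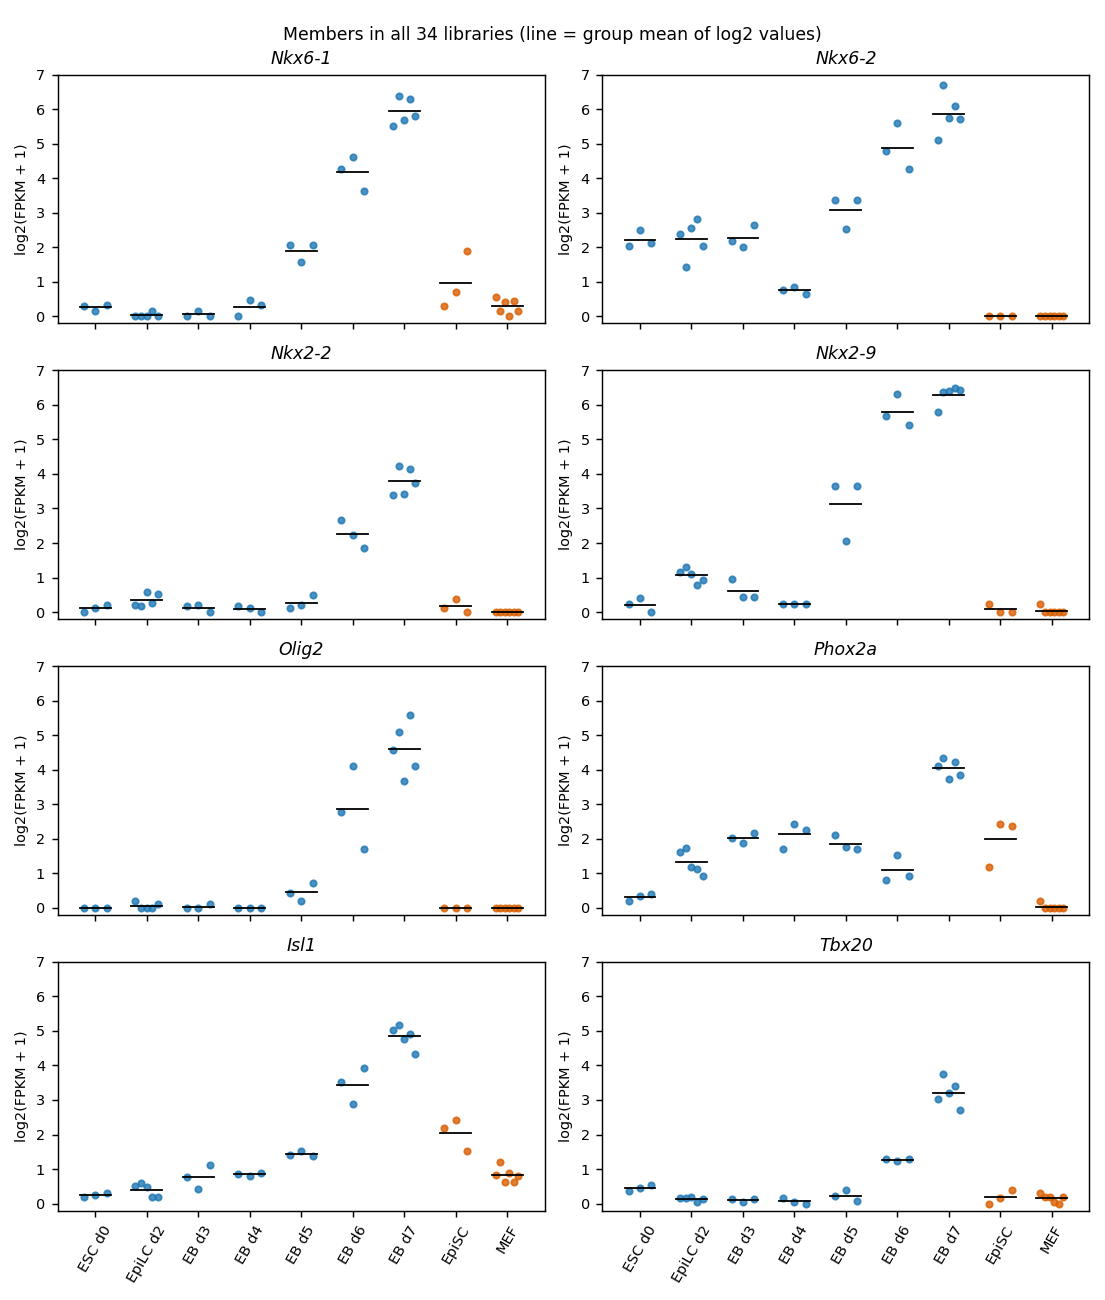
Each panel plots 1 gene in all 34 libraries, as log2(FPKM + 1), by group on the x axis; points are libraries, lines are group means of the log2 values, blue marks the CBMS1 course and orange EpiSC and MEF. In all 8 panels the group with the highest line is EB day 7, from a mean of 8.57 FPKM for Tbx20 to 78.5 FPKM for Nkx2-9.

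By step, the counts of called genes were concentrated in the last 3 days. From day 0 to day 2, 1 gene was called higher, against 7.69% of all genes, and 0 lower, against 9.09%. From day 2 to day 3, 0 were called higher, against 0.911%, and 0 lower, against 0.959% in the same limma fit. At an unadjusted p under 0.05, Phox2a was higher over this step and none of the 8 was lower. From day 3 to day 4, 0 were called higher, against 0.911%, and 1 lower, against 1.38%. From day 4 to day 5, 3 were called higher, against 6.22%, and 0 lower, against 1.55%. From day 5 to day 6, 7 were called higher, against 2.19% of all genes, and 0 lower, against 2.77%. From day 6 to day 7, 6 were called higher, against 2.80%, and 0 lower, against 2.00%. With no overlap between libraries, 5 were higher and 0 lower from day 4 to day 5 (23.1% and 20.8% of all genes), 7 higher and 1 lower from day 5 to day 6 (13.2% and 13.1%) and 5 higher and 0 lower from day 6 to day 7 (15.4% and 14.0%). At an unadjusted p under 0.05, the genes lower in the steps with 0 called lower were Tbx20 from day 0 to day 2 (-0.31) and Phox2a from day 5 to day 6. The counts of the last 3 steps within project A were 3, 6 and 6 higher, and within project B 2, 7 and 4 higher. Project A has 1 library each on days 3 to 6, and there the spread is taken from the other groups. In project A, Phox2a was called lower from day 5 to day 6.

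**Figure D2:**
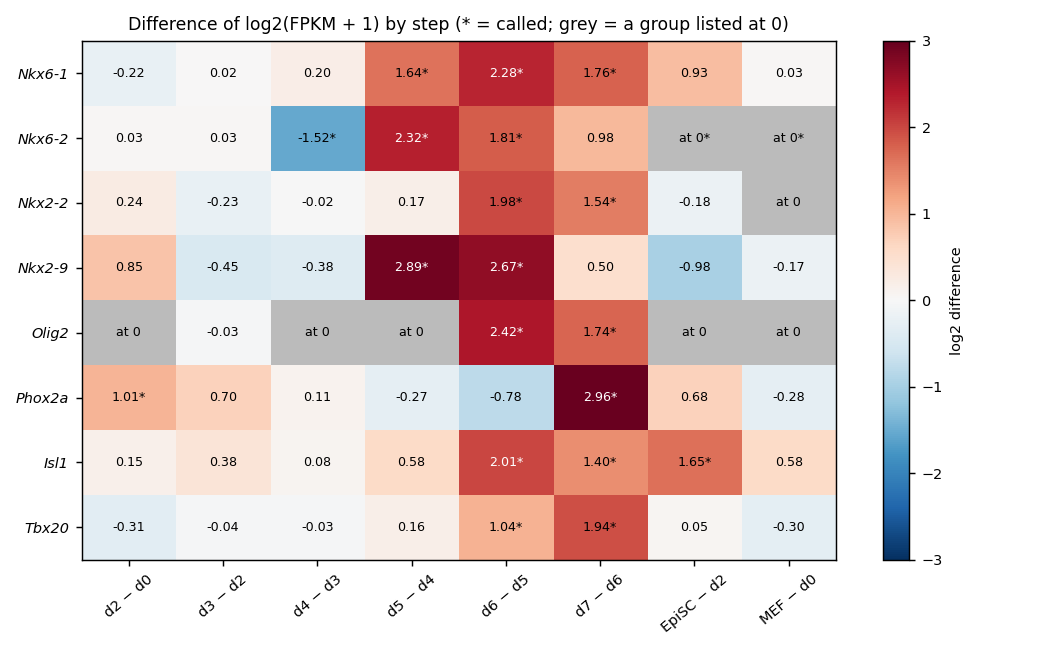
Rows are the 8 genes and columns are comparisons (d, day); the number and the colour give the difference of log2(FPKM + 1), first group minus second, a star marks a call, and grey cells are comparisons in which a group was listed at 0 in all its libraries. The 3 stars of d5 − d4 are on Nkx6-1, Nkx6-2 and Nkx2-9, and the row of Phox2a holds a difference of -0.78 for d6 − d5 and 2.96 for d7 − d6.

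Nkx6-1 (chr5:102088216-102093730 of mm9, start as deposited) is needed for somatic motor neurons and interneurons of the ventral cord and, in the pancreas, for beta cells. Its level was at most 0.378 FPKM in any library of days 0 to 4. It was 3.15, 1.98 and 3.17 FPKM in replicates 1 to 3 of day 5 and 18.3, 23.7 and 11.3 FPKM in those of day 6. On day 7 it was 44.7, 81.9, 49.9, 77.7 and 54.8 FPKM in replicates 1 to 5. From day 5 on, the libraries of each day lay above all those of the day before. The log2 difference was 1.64 ± 0.27 (SE) from day 4 to day 5 (adjusted p = 1.97e-05), 2.28 ± 0.27 from day 5 to day 6 (adjusted p = 2.03e-07) and 1.76 ± 0.24 from day 6 to day 7 (adjusted p = 1.64e-06). Within project B the first of these was 1.43 with an adjusted p of 0.0559. The gene thus rose in 3 steps and had 4.48% of its day 7 mean on day 5 and 28.7% on day 6.

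Nkx6-2 (chr7:146765275-146768696, mm9), which overlaps Nkx6-1 in the ventral bands and acts with it, had another course. It was already measurable in the stem cells, at 3.09, 4.69 and 3.37 FPKM on day 0. It was 4.21, 1.69, 4.86, 6.12 and 3.14 FPKM on day 2 and 3.57, 2.99 and 5.27 FPKM on day 3. These 3 groups overlapped. On day 4 it was 0.694, 0.792 and 0.579 FPKM, below every library of days 0 to 3. The log2 difference from day 3 to day 4 was -1.52 ± 0.32 (adjusted p = 0.00119), and it was called with each library left out in turn, with differences from -1.67 to -1.34. Within project A alone it was -1.43 (adjusted p = 0.163) and within project B alone -1.57 (adjusted p = 0.0599). Nkx6-2 then rose to 9.22, 4.71 and 9.27 FPKM on day 5, which is 2.32 ± 0.32 above day 4 on the log2 scale (adjusted p = 9.98e-07). Day 5 lay above day 4 in every library but overlapped days 2 and 3.

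On day 6 Nkx6-2 reached 26.8, 47.5 and 18.2 FPKM and on day 7 33.2, 102, 52.2, 66.5 and 51.9 FPKM. Days 5 and 6 did not overlap, and days 6 and 7 did. The step from day 5 to day 6 was 1.81 ± 0.32 (adjusted p = 9.05e-05), and with only the libraries of these 2 days in the fit the adjusted p was 0.0556. The step from day 6 to day 7 was 0.98 ± 0.28 (adjusted p = 0.0106), just under the minimum of 1. It passed that minimum without EB day 6 replicate 2 (1.33), EB day 7 replicate 1 (1.17), replicate 3 (1.01) or replicate 5 (1.01). Nkx6-2 shares 277 bases of its entry with Inpp5a, an enzyme gene of inositol phosphate metabolism with 11.7 FPKM on day 5 and 12.5 FPKM on day 7. The level of Inpp5a on day 4 was 9.73 FPKM where Nkx6-2 was at 0.688 FPKM, and in MEF it was 32.0 FPKM where Nkx6-2 was listed at 0.

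Nkx2-9 (chr12:57712384-57714271, mm9), a marker of the most ventral progenitors and of visceral and branchial motor progenitors, was the earliest of the set to come near its final level. It was 1.25, 1.48, 1.14, 0.726 and 0.917 FPKM on day 2 and 0.166, 0.184 and 0.181 FPKM on day 4. On day 5 it was 11.4, 3.18 and 11.7 FPKM, above every library of the earlier days. On day 6 it was 49.9, 78.1 and 41.4 FPKM. It then stood at 54.2, 81.1, 83.6, 89.2 and 84.5 FPKM on day 7, so that days 6 and 7 overlapped. The log2 difference was 2.89 ± 0.27 from day 4 to day 5 (adjusted p = 6.41e-10) and 2.67 ± 0.27 from day 5 to day 6 (adjusted p = 9.14e-09). From day 6 to day 7 it was 0.50 ± 0.24 (adjusted p = 0.122), and with each library left out in turn it ran from 0.30 to 0.75 and was called in none of the 8 fits. Its day 6 mean was 71.9% of its day 7 mean.

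Nkx2-2 (chr2:147003282-147012138, mm9), the other NK2 gene of the most ventral band and later a gene of oligodendrocyte precursors and pancreatic islets, rose a day later. No library of days 0 to 5 was above 0.490 FPKM. On day 6 it was 5.35, 3.66 and 2.64 FPKM and on day 7 9.58, 17.7, 9.71, 16.8 and 12.3 FPKM. The libraries of days 5, 6 and 7 lay in 3 separate ranges. From day 5 to day 6 the log2 difference was 1.98 ± 0.18 (adjusted p = 2.4e-09), and from day 6 to day 7 it was 1.54 ± 0.16 (adjusted p = 1.83e-08). On day 5, when Nkx2-9 had reached 11.2% of its day 7 mean, Nkx2-2 had 1.64% of its own.

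**Figure D3:**
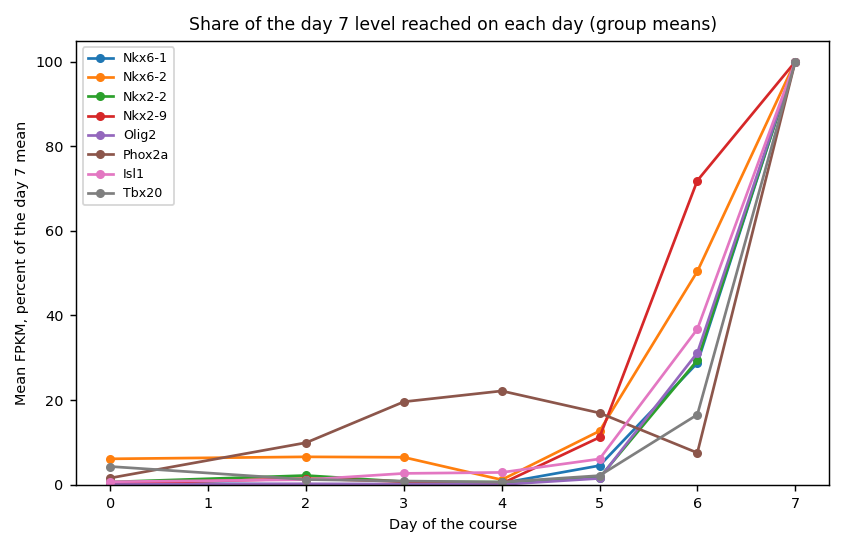
The y axis gives the mean FPKM of each gene as a percent of its own day 7 mean and the x axis the day of the course; each line joins the group means of 1 gene. On day 6 the lines span 7.50% for Phox2a to 71.9% for Nkx2-9, with Nkx6-2 at 50.4%, Isl1 at 36.8%, Olig2 at 31.2%, Nkx2-2 at 29.4%, Nkx6-1 at 28.7% and Tbx20 at 16.5%.

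Olig2 (chr16:91225795-91228922, mm9), a helix-loop-helix factor that marks motor neuron progenitors and later oligodendrocyte precursors, was listed at 0 in 20 of the 34 libraries. Those were all libraries of days 0 and 4, of EpiSC and of MEF and some of days 2 and 3. On day 5 it was 0.353, 0.142 and 0.643 FPKM. On day 6 it was 5.79, 16.3 and 2.28 FPKM and on day 7 22.5, 33.3, 11.8, 46.7 and 16.2 FPKM. Day 5 lay below day 6, and days 6 and 7 overlapped, because day 6 replicate 2 was higher than day 7 replicates 3 and 5. The log2 difference was 2.42 ± 0.35 from day 5 to day 6 (adjusted p = 6.43e-06) and 1.74 ± 0.32 from day 6 to day 7 (adjusted p = 0.000111). With only the libraries of the 2 days in the fit, the adjusted p was 0.0717 for the first and 0.0582 for the second. The coefficient of variation over libraries was 89.9% on day 6 and 53.9% on day 7, and in both it was above that of each of the other 7 genes.

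Isl1 (chr13:117088478-117099896, mm9), a LIM homeodomain factor needed for motor neurons, rose from day 5 on. It was above 0 in every one of the 34 libraries. It was 0.813, 0.754 and 0.857 FPKM on day 4 and 1.64, 1.88 and 1.60 FPKM on day 5. This step was 0.58 ± 0.23 on the log2 scale and was not called (adjusted p = 0.0533), though the libraries did not overlap, as in 23.1% of all genes in this direction. From day 2 to day 5 the difference was 1.04 ± 0.20 (adjusted p = 5.85e-05). It fell under the minimum of 1, to 0.99 each, without EpiLC day 2 replicate 4, EpiLC day 2 replicate 5 or EB day 5 replicate 2. With a block for the label's replicate number it was 0.90, which left 2 of the 8 genes called over these days. It was one of 3 genes called higher over these days, with Nkx2-9 and Nkx6-1, against 10.6% of all genes, and 0 were lower, against 7.76%. Isl1 then reached 10.4, 6.34 and 14.3 FPKM on day 6 and 31.5, 34.8, 26.4, 29.0 and 19.3 FPKM on day 7. Neither step overlapped. The differences were 2.01 ± 0.23 (adjusted p = 9.51e-08) and 1.40 ± 0.20 (adjusted p = 3.94e-06), the latter 1.22 within project B (adjusted p = 0.0621).

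Phox2a (chr7:108966827-108971240, mm9), a paired-type homeodomain factor of visceral motor and noradrenergic neurons, did not follow the others before day 7. It was 0.141, 0.281 and 0.313 FPKM on day 0 and 2.09, 2.34, 1.25, 1.20 and 0.904 FPKM on day 2. Those groups did not overlap, and Phox2a was the gene called higher from day 0 to day 2, with a log2 difference of 1.01 ± 0.22 (adjusted p = 0.0003). This value was close to the minimum of 1 and fell to 0.95 without ESC day 0 replicate 1, to 0.93 without EpiLC day 2 replicate 1 and to 0.90 without EpiLC day 2 replicate 2. From day 2 to day 3 it was higher by 0.70 ± 0.22 (adjusted p = 0.022), short of the minimum.

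Its values then formed a plateau, with 3.09, 2.67 and 3.49 FPKM on day 3 and 2.28, 4.41 and 3.76 FPKM on day 4. On day 5 they were 3.31, 2.40 and 2.28 FPKM. On day 6 they were 0.735, 1.90 and 0.910 FPKM, below every library of day 5. The log2 difference from day 5 to day 6 was -0.78 ± 0.25 (adjusted p = 0.0318), which was short of the minimum of 1, while the other 7 genes were called higher over the same day. On day 7 Phox2a was 16.1, 19.1, 12.2, 17.9 and 13.4 FPKM, above every library of every other group. That step, 2.96 ± 0.22 (adjusted p = 8.93e-12), was its only called rise among the 5 steps of 1 day, and it came to 2.81 or more with each library left out in turn. Phox2a shares 95 bases of its entry with Inppl1, which was at 24.9 FPKM on day 6 and 29.4 FPKM on day 7, and whether reads of the overlap entered both values was not tested.

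Tbx20 (chr9:24525256-24578747, mm9), a T-box factor of hindbrain motor neurons and of the heart, was the lowest of the 8 on day 7. No library of days 0 to 5 was above 0.444 FPKM. On day 6 it was 1.45, 1.36 and 1.44 FPKM, a range narrower than that of any other of the 8 genes on that day. On day 7 it was 7.14, 12.5, 8.12, 9.53 and 5.55 FPKM. Days 5, 6 and 7 did not overlap. The log2 difference was 1.04 ± 0.16 from day 5 to day 6 (adjusted p = 9.73e-06) and 1.94 ± 0.14 from day 6 to day 7 (adjusted p = 3.41e-12). The first is close to the minimum of 1 and was 0.96 without EB day 5 replicate 3 and 0.99 after quantile normalization.

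The epiblast stem cells differed from the epiblast-like cells in 2 of the 8 genes, 1 higher, against 10.8% of all genes, and 1 lower, against 8.22%. Isl1 was 3.59, 4.34 and 1.86 FPKM in EpiSC, above every library of day 2, a log2 difference of 1.65 ± 0.20 (adjusted p = 3.65e-08). Nkx6-2 was listed at 0 in all 3 EpiSC libraries and was called lower than on day 2 (adjusted p = 5.58e-08). Nkx6-1 was 0.235, 0.619 and 2.69 FPKM in EpiSC, with replicate 3 the highest. Its difference from day 2 was 0.93 ± 0.24 (adjusted p = 0.00146), and it came to 1.26 without EpiSC replicate 1 and to 0.47 (adjusted p = 0.0754) at the lowest with a library left out. Phox2a was 1.28, 4.43 and 4.19 FPKM, with EpiSC replicate 1 inside the range of day 2 and the others above it. Without replicate 1 its difference rose from 0.68 to 1.09.

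Fibroblast markers were present in the EpiSC libraries, and their part in these results was not tested. The 13 markers of the list summed to between 346 and 561 FPKM in EpiSC, to between 10148 and 14829 FPKM in MEF and to between 15.5 and 21.4 FPKM on day 2. Isl1 in MEF, with a mean of 0.794 FPKM, was lower than in EpiSC, and Nkx6-2 was listed at 0 in both. Against EB day 7, 8 of 8 genes were lower in EpiSC, against 9.59% of all genes, and 0 were higher, against 7.30%. EpiSC and MEF differ from the CBMS1 course in strain and medium, and these cannot be told apart from the cell type.

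In the fibroblasts Nkx6-2, Nkx2-2 and Olig2 were listed at 0 in all 6 libraries. Nkx2-9 and Phox2a were above 0 in MEF replicate 1 only, at 0.180 and 0.147 FPKM. Against EB day 7, 8 of 8 were lower, against 16.1% of all genes, and 0 higher, against 18.3%. Against ESC day 0, 1 was lower, Nkx6-2 (adjusted p = 1.23e-08), against 19.2% of all genes, and 0 were higher, against 22.8%. Isl1 ranged from 0.548 FPKM to 1.28 FPKM in MEF with a median of 0.761 FPKM. It was above every ESC library, a log2 difference of 0.58 ± 0.20 (adjusted p = 0.00801) that is short of the minimum. Nkx6-1 was 0.344 to 0.482 FPKM in the 3 passages of the first fibroblast culture and 0 to 0.123 FPKM in those of the second (exact permutation test over libraries, two-sided p = 0.1, the smallest that 3 against 3 allows). Passages of 1 culture are not separate cultures.

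Ordered by mean level, EB day 7 was the first group for each of the 8 genes and EB day 6 the second for each but Phox2a, whose second was EB day 4. The libraries of days 6 and 7 overlapped for Nkx6-2, Nkx2-9 and Olig2 and not for Nkx6-1, Nkx2-2, Phox2a, Isl1 and Tbx20; 15.4% of all genes were higher on day 7 with no overlap. Below these, EpiSC came next for Isl1 and overlapped EB day 5. ESC day 0 came next for Tbx20, at 0.279, 0.373 and 0.444 FPKM, and overlapped EB day 5. On the FPKM scale, which divides by transcript length, the order of mean levels between genes on day 7 was Nkx2-9 (78.5 FPKM), Nkx6-1 (61.8), Nkx6-2 (61.1), Isl1 (28.2), Olig2 (26.1), Phox2a (15.7), Nkx2-2 (13.2) and Tbx20 (8.57). On day 5 it was led by Nkx2-9 (8.77 FPKM), Nkx6-2 (7.74), Nkx6-1 (2.77) and Phox2a (2.66).

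The dates in the library titles put 20 libraries into 4 culture courses, of which courses 2, 3 and 4 were sampled on each day from 2 to 7. Olig2 differed between these courses. In course 3 it was 16.3 FPKM on day 6 and 46.7 FPKM on day 7, in course 2 it was 5.79 and 22.5 FPKM, and in course 4 it was 2.28 and 16.2 FPKM. The order of the courses was the same on both days, with 1 library per course and day and no test. Course 3 was also highest for Neurog2, which drives neurogenesis of motor neurons, at 5.42 FPKM on day 6 and 21.6 FPKM on day 7, while course 2 was at 1.04 and 15.0 FPKM and course 4 at 1.29 and 5.09 FPKM.

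Isl1 had another order, with 14.3 FPKM in course 4, 10.4 FPKM in course 2 and 6.34 FPKM in course 3 on day 6, and with 31.5 FPKM in course 2, 29.0 FPKM in course 3 and 19.3 FPKM in course 4 on day 7. Over the 8 genes, course 3 was the highest for 2 on day 5, for 5 on day 6 and for 7 on day 7, Isl1 being the exception. Course 4 was the highest for 5 on day 5 and for none on day 7. On day 5, however, courses 2 and 4 were close for Nkx6-1 (3.15 and 3.17 FPKM) and Nkx6-2 (9.22 and 9.27 FPKM). Nkx2-2 and Olig2 were under 1 FPKM in each course on that day. For Nkx2-9, course 3 had 3.18 FPKM on day 5 against 11.4 and 11.7 FPKM in courses 2 and 4, and 78.1 FPKM on day 6 against 49.9 and 41.4 FPKM. Shh was lowest in course 3 on day 6, at 48.6 FPKM against 109 FPKM in course 2 and 89.9 FPKM in course 4. It was lowest in course 2 on day 5, at 8.07 FPKM against 18.9 and 27.9 FPKM in courses 3 and 4, and on day 7, at 55.2 FPKM against 61.1 and 92.4 FPKM. Gli1 on day 6 was lowest in course 4, at 30.2 FPKM, with 34.8 FPKM in course 3 and 42.1 FPKM in course 2. Courses 3 and 4 are in project B and course 2 is in project A.

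**Figure D4:**
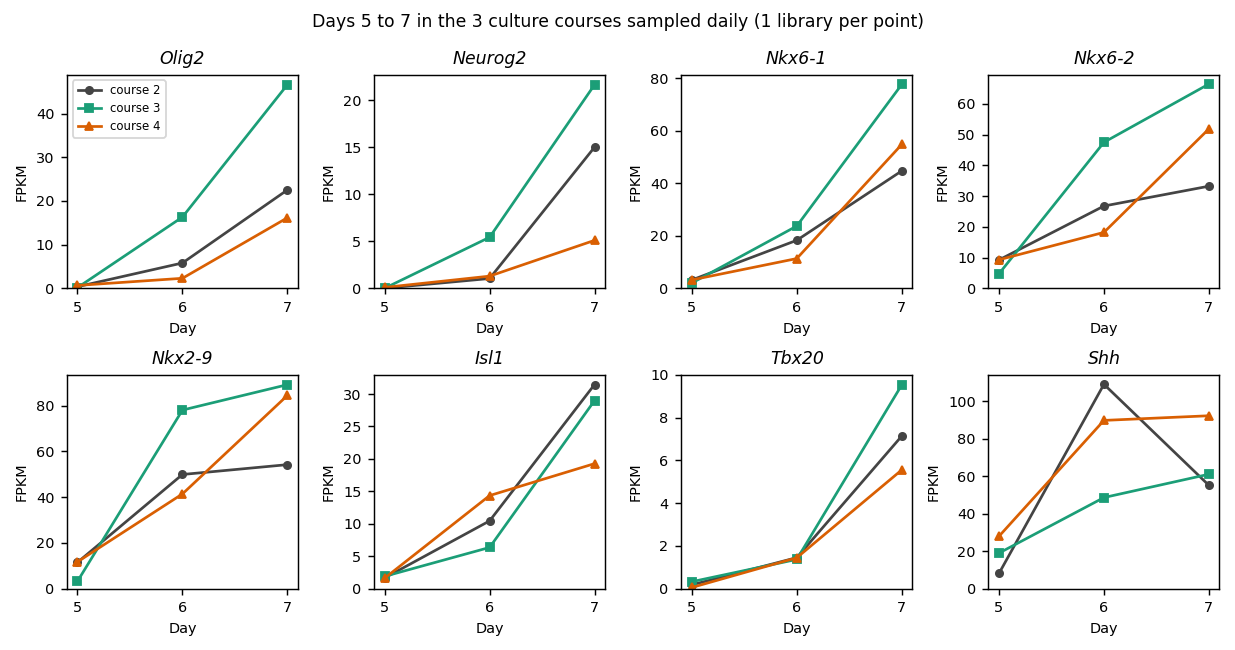
Each panel gives FPKM (y axis) on days 5, 6 and 7 (x axis) for 1 gene, with a line for each of the 3 culture courses sampled daily and 1 library per point. The line of course 3 is the highest on days 6 and 7 for Olig2, Neurog2, Nkx6-1, Nkx6-2 and Nkx2-9, and on these days it is not the highest for Isl1.

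The signals known to act upstream of these genes were measured in the same libraries. For the lists in this and the next paragraphs, the shares called over all genes were as follows. From day 4 to day 5, 6.22% were higher and 1.55% lower. These shares were 2.19% and 2.77% from day 5 to day 6, and 2.80% and 2.00% from day 6 to day 7. Of the hedgehog list of 17 genes, 16 were in the table and 13 passed the filter. From day 4 to day 5, 4 of the 13 were called higher and 0 lower, and their median log2 difference was 0.60, against 0.00 over all genes tested. Shh, the ligand, rose from 0.0541 to 18.3 FPKM (log2 difference 4.05, adjusted p = 6.13e-12). Its receptor Ptch1, itself a target of the pathway, rose from 4.65 to 37.1 FPKM (2.65, adjusted p = 2.47e-10), and the target and effector Gli1 rose from 0.965 to 16.7 FPKM (3.12, adjusted p = 3e-13). From day 5 to day 6, 3 were higher (Shh, Gli1 and Hhip) and 0 lower, with a median of 0.32. From day 6 to day 7, 0 of 13 were called in either direction, with a median of 0.01, while 6 of the 8 genes described here were called higher. Shh stood at 82.6 ± 30.9 FPKM (SD, n = 3) on day 6 and 81.3 ± 33.7 FPKM (SD, n = 5) on day 7, and Gli1 at 35.7 ± 5.96 FPKM and 35.9 ± 7.08 FPKM. Disp1, which releases the ligand, was listed at 0 in every library of every group. Whether its RNA was absent or its entry was not counted was not tested. From day 4 to day 5, Nkx6-1, Nkx6-2 and Nkx2-9 were called higher, as were Shh, Ptch1 and Gli1. Shh and Gli1 were called higher again from day 5 to day 6, as were Nkx6-1, Nkx6-2 and Nkx2-9. Whether hedgehog signalling acted on the 8 genes was not tested.

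The floor plate and the notochord, the tissues that make Shh in the embryo, have their own lists. Of 12 floor plate genes, all tested, 7 were called higher and 1 lower from day 4 to day 5, 3 higher from day 5 to day 6 and 5 higher from day 6 to day 7, with medians of 1.17, 0.51 and 0.45. Foxa2, a factor of both tissues, was at 41.0 FPKM on day 4, 81.6 on day 5 and 59.5 on day 7. Of 9 notochord genes, 8 were higher from day 4 to day 5, and from day 6 to day 7 4 were lower and 0 higher. T, a notochord and mesoderm factor, went from 528 FPKM on day 5 to 304 and then 74.3 FPKM, and Noto from 81.1 to 25.7 and 0.675 FPKM. These lists share Shh, Foxa1 and Foxa2.

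The genes of the motor neuron list were called most often in the last step, with some earlier. Of 18 genes on the motor neuron list, all tested and 3 of them members of the set (Isl1, Phox2a and Tbx20), 2 were called higher (Mnx1 and Ret) and 2 lower (Nefl and Prph) from day 4 to day 5, 4 higher from day 5 to day 6 and 0 lower, and 12 higher and 1 lower from day 6 to day 7. The median log2 difference of the list was 0.10, 0.14 and then 1.44, against 0.00, -0.01 and 0.00 over all genes. Slc18a3, the vesicular transporter of acetylcholine, rose from 0.360 to 6.65 FPKM from day 6 to day 7 (2.48, adjusted p = 1.57e-13). Chat, the enzyme that makes acetylcholine, went from 0.153 to 1.48 FPKM (1.08, adjusted p = 6.19e-09). Slc5a7, the transporter that takes up choline, was at 0.218 FPKM on day 6 and 0.158 FPKM on day 7 (-0.07, adjusted p = 0.817), and at 2.84 FPKM in EpiSC and 2.72 FPKM in MEF. Prph, a neuronal intermediate filament, was at 1.98 FPKM on day 7 and 40.9 FPKM on day 2. Lhx3, the LIM factor that pairs with Isl1 in somatic motor neurons, reached 2.42 ± 1.76 FPKM (SD, n = 5). The gene called lower was Mnx1, a somatic motor neuron factor that is also made in the notochord, at 0.236 FPKM on day 4, 13.8 FPKM on day 5, 18.2 FPKM on day 6 and 4.82 FPKM on day 7 (-1.73, adjusted p = 2.55e-07).

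Along the other axes of the neural tube, hindbrain genes were measured beside dorsal genes and those of neurons. On the list of visceral and branchial motor and hindbrain genes, 6 of 12 were called higher from day 6 to day 7 and 0 lower. Hoxb1, a marker of rhombomere 4, where facial branchial motor neurons form, was at 4.06 FPKM on day 4, 35.1 on day 5 and 25.1 on day 7. Of 17 genes on the neuron list, all tested, 5 were higher and 1 lower from day 5 to day 6, and 11 were higher and 0 lower from day 6 to day 7, with a median of 1.88. Of 15 genes of retinoic acid signalling, which patterns the hindbrain and cord, 8 were higher and 1 lower from day 4 to day 5, and 0 were higher and 3 lower from day 6 to day 7. Of 17 dorsal genes, 10 passed the filter. Of these, 3 were higher from day 4 to day 5 (Lmx1a, Olig3 and Wnt3a) and 0 lower, 2 higher and 2 lower from day 5 to day 6, and 1 higher and 2 lower from day 6 to day 7. Lmx1a, a factor of the roof plate that is also made in the ventral midbrain, was at 7.60, 16.9 and 6.74 FPKM on days 5, 6 and 7. Pax7 was at most at a group mean of 0.144 FPKM, and Pax3 reached 1.81 FPKM on day 6. Olig3, a dorsal progenitor gene related to Olig2, was at 13.5 FPKM on day 5 and 0.817 FPKM on day 7. Olig1, beside Olig2 on the chromosome, was at 1.66 FPKM on day 7, and Pax6, which marks bands above that of Nkx2-2, rose from 0.424 FPKM on day 5 to 4.17 FPKM on day 6 (1.73, adjusted p = 1.41e-06).

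**Figure D5:**
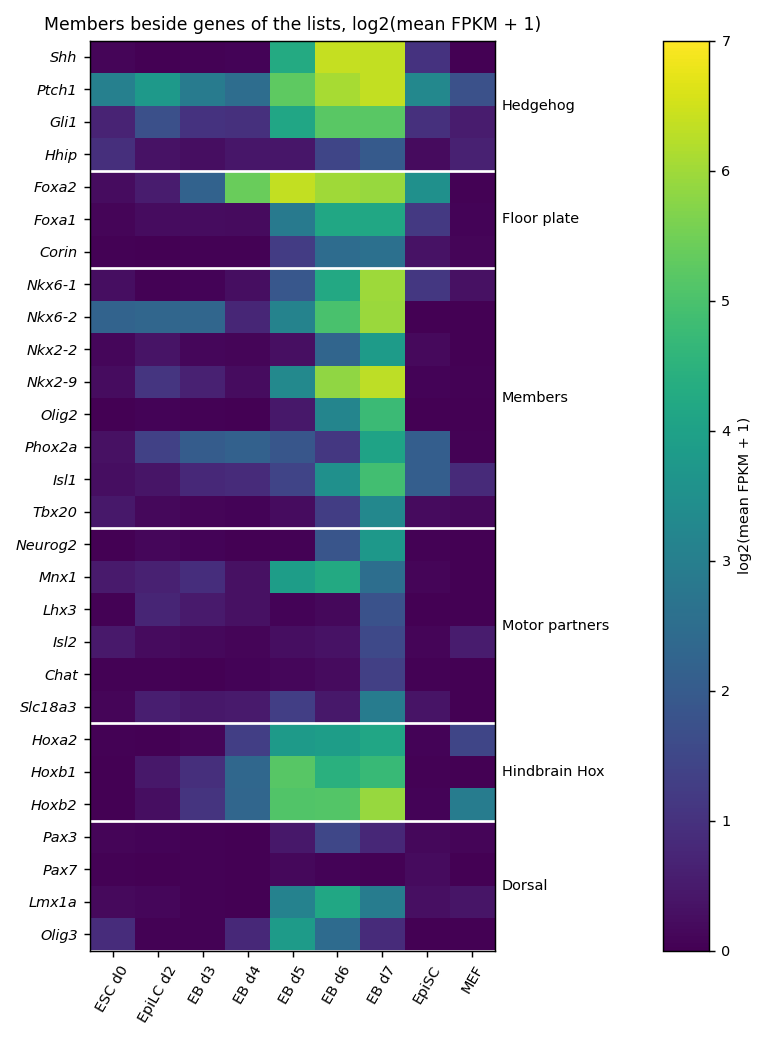
Rows are genes grouped by list and columns are the 9 groups; colour gives log2(mean FPKM + 1). The hedgehog genes Shh and Gli1 are bright from EB day 5, when Shh was at 18.3 FPKM, and the dorsal gene Pax7 stays dark in each group. The motor partner Neurog2 is brighter on EB day 7 (12.2 FPKM) than on EB day 6 (2.58 FPKM).

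Markers of other tissues that use the same factors were also read. Of the 14 genes of the heart list other than Isl1 and Tbx20, the summed level was 25.1 to 68.0 FPKM on day 7 and 27.9 to 53.7 FPKM on day 6. Nkx2-5, the core cardiac factor, was at 2.88 ± 2.75 FPKM on day 6 and 4.92 ± 4.73 FPKM on day 7. Myh7 was at 7.69 and 11.8 FPKM and Tbx1 at 3.27 and 3.89 FPKM. All 3 were called higher from day 5 to day 6, as were Isl1 and Tbx20, while Gata4 was called lower. From day 6 to day 7, Isl1 and Tbx20 were the only 2 genes of the list called higher, and 2 were called lower (Myl7 and Gata6). Tnnt2, a structural gene of heart muscle, was at 0.704 FPKM and Hand2 at 0.136 FPKM on day 7. The part of heart cells in the levels of Isl1 and Tbx20 was not tested. Of the pancreas genes, Ins1, Ins2 and Gcg were listed at 0 in every library and Pdx1 was at 0.110 FPKM on day 7. The 11 genes of the endoderm and pancreas list other than members summed to between 186 and 357 FPKM on day 5 and between 93.5 and 135 FPKM on day 7. Of oligodendrocyte genes, Sox10 was at 0.217 FPKM and Mog at 0.0172 FPKM on day 7. Pdgfra was not analysed here.

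Next, the genes whose pattern was most like that of each member were listed, by Pearson r over the 9 group means of log2(FPKM + 1). This is a description over 9 points that share the rise at day 7, and the lists change with the measure. Of each 5, only 1 or 2 were also among the 5 highest over the 34 libraries, and by Spearman's rho over the groups some stood far lower, such as Vit at rank 2024 for Tbx20 and Corin at rank 1883 for Nkx2-9. For Olig2 they included Clec1b (r = 1.00), 6430503K07Rik, Hbb-bh1 and Hba-x, and for Nkx2-2 they included Tmprss5 (r = 1.00), Hba-x, Neurog2 and Hbb-bh1. Hbb-bh1 and Hba-x are globin genes of embryonic red blood cells, at 36.8 and 25.8 FPKM on day 7. For Nkx6-1 they were Zbtb16 (r = 0.99), Lgi1, 1700112E06Rik, Grik2 and Cxxc4. For Nkx6-2 they were Vps72 (r = 0.98), Lime1, Shtn1, Myo5b and Pomc. For Nkx2-9 they were Ret (r = 0.99), Myo5b, Corin, Mpped1 and Gli1. For Isl1 they were Gm17455 (r = 0.99), Col22a1, Cxxc4, Cdh22 and Tcf3. For Tbx20 they were Neurod4 (r = 1.00), Vit, Clec2l, Pou3f2 and Pnky, and for Phox2a Snap25 (r = 0.95), Celsr3, Ncan, Sertm1 and Sh2d3c. Among the members, r was 1.00 between Olig2 and Nkx2-2 and 0.98 between Olig2 and Nkx6-1, and between 0.50 and 0.66 for Phox2a with each of the others.

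On the chromosome, 22 entries lay within 100000 bases of the 8 genes, and none of them near Nkx6-1 or Isl1. The noncoding gene 6430503K07Rik lies 1022 bases from Nkx2-2 and was at 0.285, 1.37 and 2.67 FPKM on days 5, 6 and 7. Nkx2-2os, an antisense gene that overlaps Nkx2-2 by 2320 bases, was at most at 0.0995 FPKM in any library. Whether the counting used the strand is not given in the sources used here, so reads of these pairs cannot be assigned with certainty. Nkx2-1 and Pax9 lie 74489 and 82355 bases from Nkx2-9, and on day 7 they were at 1.25 and 7.08 FPKM against its 78.5 FPKM. Olig1 lies 41092 bases from Olig2.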

How the data were processed

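Total RNA was sequenced as stranded mRNA libraries (TruSeq Stranded mRNA, per the labels' protocols). The deposited table holds the authors' FPKM. The submitters' processing notes name HISAT2 2.0.4, Cuffdiff, Cufflinks 2.2.1, cutadapt 1.4.1 and the genome build mm9, without settings. FPKM hold no fragment counts, so depth is unknown. The smallest steps between low values gave relative depths of 0.85 to 1.19 times the median, and 28.8 to 46.2% of values lay on such steps, so no counts were recovered and no count test was run.

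Libraries were grouped by their titles. The cell type field of 9 of the 25 course libraries names another stage than the title, and 1 title differs from its column name by 1 letter. The differences of log2(FPKM + 1) were tested with limma 3.58.1 (R 4.3.3, empirical Bayes with trend) in 1 fit over 34 libraries. P-values were adjusted by Benjamini-Hochberg over 14595 genes, and they measure the spread between these libraries. On data simulated from these libraries, the fit found 95 of 100 genes changed 2-fold and 100 of 100 changed 4-fold between days 7 and 2. Found here means an adjusted p below 0.05 alone, without the minimum difference that calls needed. The changed genes were picked from those of higher mean level, so these rates do not cover the calls or genes near 0. Figures and sums used Python 3.11.15, pandas 2.3.3, scipy 1.17.1 and matplotlib 3.10.9. The 8 genes and all gene lists were chosen with earlier results of these data known. Named genes are the 8, list genes that a comparison turns on, the 5 genes most like each by correlation of group means, and chromosomal neighbours within 100000 bases. Alternatives covered the pseudocount (0.1), the filter (none, or 5 FPKM), quantile and median-ratio scaling, fits of 2 groups, each project alone or as a covariate, blocks, fibroblast culture means, no minimum difference and each library left out. Deviations from the group means had a median r of -0.01 over 46 pairs of same-course libraries, with a range of -0.32 to 0.33. Over 120 pairs from different courses the range was -0.34 to 0.36. Some genes and sequences are not reported here.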

Additional observations from a re-analysis of the deposited data

Results flagged for a closer look

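Of 21 pairs of a gene and a group of 5 or 6 libraries with values above 0, 4 held a library far from the rest. Groups of 3 libraries were not tested in this way. Chance gives about 1 in 20 for values that vary freely. That rate does not apply to 3 of the 4, in which 1 library was just above 0 and the others were listed at 0. Nkx6-1 was 0.124 FPKM in EpiLC day 2 replicate 4 and 0 in the other 4. Nkx2-9 was 0.180 FPKM and Phox2a 0.147 FPKM in MEF replicate 1, with the other 5 libraries at 0. Nkx2-9 was lowest on EB day 7 in replicate 1, at 54.2 FPKM, where the other 4 were 81.1 to 89.2 FPKM.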

How the results depend on the processing

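Counts of the 8 genes called did not change without the filter, with a filter of 5 FPKM, with median-ratio scaling, with project as a covariate or with the means of the fibroblast cultures. With a pseudocount of 0.1, 3 were higher and 2 lower from day 0 to 2, 1 higher from day 2 to 3, 1 lower from day 5 to 6, 2 higher and 2 lower in EpiSC against day 2, and 1 higher and 3 lower in MEF against day 0. With no minimum difference, 2 were higher from day 0 to 2, 1 higher from day 2 to 3, 1 lower from day 5 to 6, 5 higher from day 2 to 5, 3 higher and 2 lower in EpiSC against day 2, and 1 higher and 2 lower in MEF against day 0. Nkx6-2 was then also called higher from day 6 to 7 (0.98, limma adjusted p = 0.0106). Quantile normalization gave 2 lower in EpiSC against day 2, 6 higher from day 5 to 6, 7 higher from day 6 to 7 and 2 higher from day 2 to 5. Project A alone gave 0 lower from day 3 to 4 and 1 lower from day 5 to 6, and project B alone 0 lower from day 3 to 4. The causes were not tested.

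With each library left out, the count ran from 0 to 1 higher from day 0 to 2, from 1 to 3 higher and 1 to 2 lower in EpiSC against day 2, from 6 to 7 higher from day 5 to 6, from 6 to 7 higher from day 6 to 7 and from 2 to 3 higher from day 2 to 5. Besides the libraries named in the report, Nkx2-9 in EpiSC against day 2 was called lower without EpiSC replicate 1 (-1.06), EpiLC day 2 replicate 4 (-1.05) or replicate 5 (-1.01), and Nkx6-1 higher without EpiSC replicate 2 (1.06). Nkx6-2 from day 2 to 5 was called higher without EB day 5 replicate 2 (1.11).

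Values that changed sign were all uncalled. For Nkx6-2 from day 0 to 2 they were -0.0017 with project as a covariate, -0.10 in project A and -0.050 with a block for the label number, and -0.12 to 0.23 with a library left out. For Nkx6-2 from day 2 to 3 they were -0.12 in project B, -0.15 with a block for the course and -0.17 in the 20 libraries of the courses without a block (chosen after seeing the data), and -0.17 to 0.18 with a library left out. For Phox2a they were -0.32 in project A and -0.042 to 0.32 with a library left out from day 3 to 4, 0.39 in project A from day 4 to 5, and 0.20 in project B from day 2 to 6. The replicate block by course changed no count of calls. The replicate block by label number moved the count from day 2 to 5 from 3 to 2 higher (Isl1, 0.90) and no other count. Some same-numbered libraries share a dated course. They were not taken as pairs, because the labels do not say what the number marks. A correlation of deviations above 0.1 was found in 6 of 46 same-course pairs and in 22 of 120 pairs from different courses. For levels under 1 FPKM the depth limits what could be seen.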
